A study of Mus musculus with 16 samples.

Results

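Unsorted germline stem cells grown on dense Matrigel were compared with GFP-sorted cells grown at the same density. The comparison used 4 of the 12 RNA libraries of the series, which lists 16 samples in all, and the 4 were chosen by their labels: GSC_ML, a culture at 10 µg/cm2 whose label mentions no sorting after culture, and GSC_Oct4_low, GSC_Oct4_mid and GSC_Oct4_high, 3 fractions sorted by GFP level from culture at 10 µg/cm2. A gene counted as different when its level in the unsorted library lay outside the levels of all 3 sorted libraries, and as called when it did so by at least 2-fold. Each library was the sole one of its group, so the spread between replicates is unknown and no statistical test was made. The unsorted library is named in parallel with a sparse-Matrigel culture, the fractions are named as a set of their own, and no label gives a date or batch. Sorting, culture and batch therefore cannot be told apart.

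The cultures shared their origin. Per the labels, the strain was B6;CBA-Tg(Pou5f1-EGFP)2Mnn/J, the cells were Oct4-GFP+ and KIT- germ cells taken at postnatal day 5.5, and the serum-free medium held GDNF, bFGF and EGF. The transgene reports the activity of the Pou5f1 (Oct4) promoter and does not mark a lineage, and the labels name no GFP-negative fraction. The labels give neither the gates nor the number of mice behind a library. In these bulk libraries, fewer cells of a type and less RNA per cell cannot be told apart.

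Germline stem cells are the cultured counterpart of undifferentiated spermatogonia, the cells that maintain sperm production. They depend on GDNF, which signals through the receptor Ret and its partner Gfra1, and they keep germ-cell genes such as Ddx4 and Dazl active. Matrigel is a basement membrane extract rich in laminin and type IV collagen. Fibroblasts, which build collagen matrix, and macrophages, which carry the receptor Csf1r, are other cells that a testis-derived culture can hold.

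The unsorted library had 4541279 expected counts, and the fractions with low, mid and high GFP had 7925471, 12019651 and 8774041, the order in which sorted values are always given. Levels are given as CPM, which are counts divided by library size after TMM adjustment. The smallest level taken as visible was 3 counts, which equals 0.724 CPM in the unsorted library and 0.238 to 0.376 CPM in the sorted ones, so a low transcript was harder to see in the unsorted library. Of the 27128 genes in the tables, 14301 averaged 1 CPM or more across the 12 libraries and were compared. A tested gene below means one past this filter, with no statistical test implied. The log2 gap below is the log2(CPM + 1) of the unsorted library minus that of the nearest sorted library, and the counting interval is the 95% Clopper-Pearson interval of the read split between those libraries, without the pseudocount.

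The unsorted library lay at least 2-fold above all 3 fractions in 1083 genes (7.57% of those tested) and at least 2-fold below them in 375 (2.62%). Of the 14301 tested genes, 137 reached the filter only through the unsorted library and 224 only through the sorted ones. The direction of those genes was set in part by the filter, so the counts and shares are a description only. The higher side also held the wider gaps: 142 genes had a log2 gap of at least 4 upward and 2 downward. In 1047 of the 1083 higher genes and 338 of the 375 lower ones the gap exceeded the whole range of the 3 fractions. The median of that range was 0.409 on the log2 scale over all genes. These genes were picked for a gap of at least 2-fold, so this outcome was largely set by the choice. The fractions are not replicates, and their range does not measure noise. Without a fold, the unsorted library was above the fractions in 4629 genes (32.4%) and below them in 5308 (37.1%). The split depended on scaling. Of the called genes 74.3% were higher with TMM factors, 62.3% with total counts, 59.2% with the deposited TPM, which are scaled to gene length, and 95.8% with the germ-cell list centred at 0. Over all genes the median log2 ratio to the mean of the fractions was -0.04, and it shifted to -0.22, -0.27 and 0.46 under those scalings. On both the CPM and the TPM scale, 837 genes were called higher and 320 lower. The lower count of 375 was less stable than the higher one: it was 628 without the low fraction and 95 with a pseudocount of 5.

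**Figure D1:**
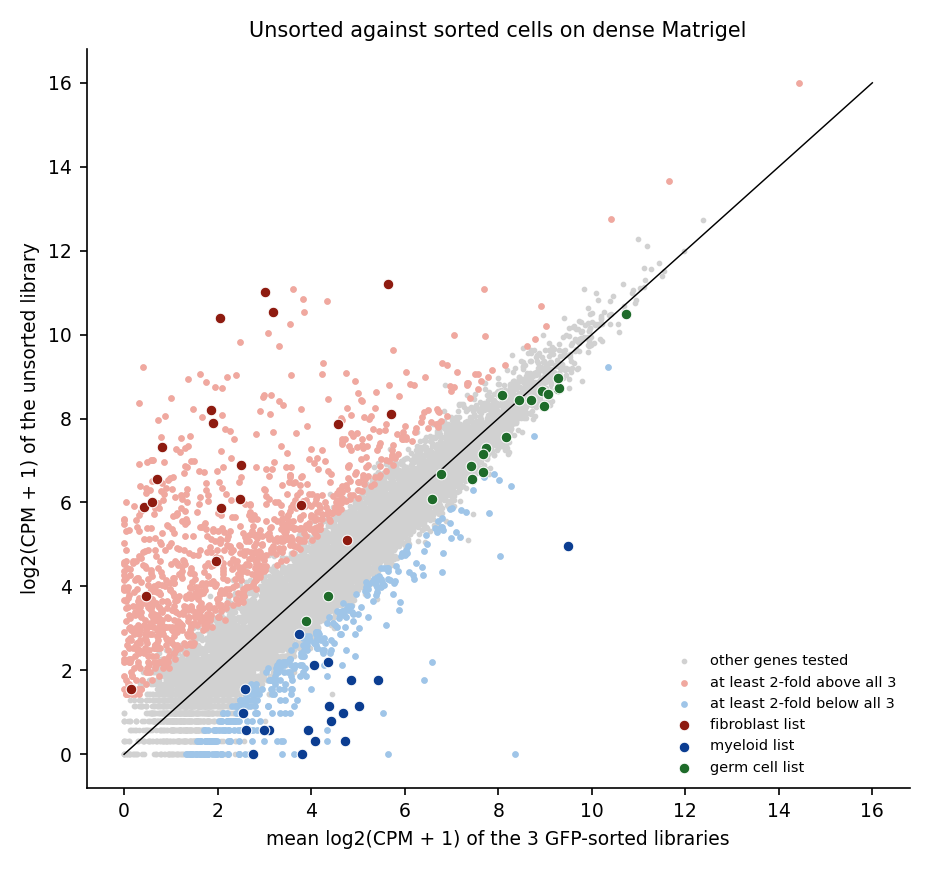
Log2(CPM + 1) of the unsorted library (vertical axis) against the mean log2(CPM + 1) of the 3 GFP-sorted libraries (horizontal axis), 1 point per gene tested, with the line of equal levels. The 1083 genes at least 2-fold above all 3 fractions and the 375 at least 2-fold below them are tinted, and the fibroblast, myeloid and germ-cell lists are drawn on top.

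Other unsorted libraries set against the same fractions gave smaller counts on the higher side. The sparse-Matrigel culture (GSC_EL, 0.1 µg/cm2) had 181 genes at least 2-fold above all 3 fractions (1.27%) and 285 below (1.99%), and with no fold 28.6% above and 32.7% below. The DMSO-treated culture on fibroblast feeders (GSC_control) had 595 (4.16%) and 326 (2.28%), and with no fold 31.5% and 33.1%. These counts share the 3 sorted libraries with the main comparison.

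The 4 marker transcripts divided the libraries in different ways. Col1a1, a chain of type I collagen made by fibroblasts, was at 2377 CPM in the unsorted library and 22.2, 50.9 and 104 CPM in the low, mid and high fractions. The unsorted library was above all 3, with a log2 gap of 4.50 (counting interval 4.41 to 4.61), and within the fractions Col1a1 was highest in GFP-high cells. Vim, the intermediate filament protein of mesenchymal cells, was at 1478 CPM in the unsorted library and 15.9, 11.1 and 13.5 CPM in the low, mid and high fractions, a log2 gap of 6.45 (counting interval 6.28 to 6.80). Ddx4, a germ-cell RNA helicase, was at 416 CPM in the unsorted library and 639, 640.0 and 589 CPM in the low, mid and high fractions. The unsorted library was the lowest, with a log2 gap of -0.50 (counting interval -0.58 to -0.42), short of 2-fold. Csf1r, the receptor of macrophage growth factor, was at 0.966 CPM in the unsorted library and 52.5, 50.3 and 5.20 CPM in the low, mid and high fractions. It had 4 counts in the unsorted library, and the log2 gap was -1.66 (counting interval -4.36 to -0.98), against the GFP-high library, which was itself far below the other fractions.

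**Figure D2:**
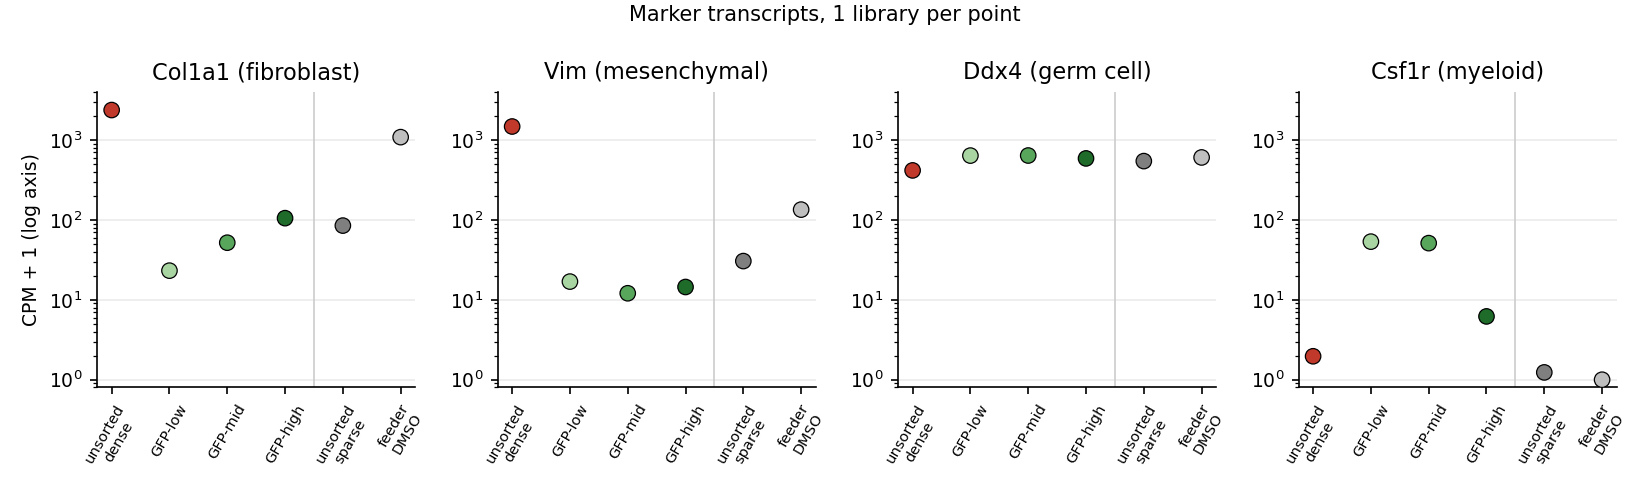
CPM + 1 on a log axis for Col1a1, Vim, Ddx4 and Csf1r in the unsorted dense-Matrigel library, the 3 fractions and, to the right of the line, the unsorted sparse-Matrigel and DMSO feeder libraries, 1 library per point. Col1a1 and Vim are highest in the unsorted dense library, Csf1r is highest in the GFP-low and GFP-mid libraries, and Ddx4 varies least.

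Lists of cell type markers divided the libraries in similar ways. They were written with earlier results of these data known, so they are not independent support for the 4 markers. Fibroblast markers summed to 2888 TPM in the unsorted library and 60.8, 76.8 and 131 TPM in the low, mid and high fractions. Their sum was 126 to 1502 TPM in the other 8 libraries of the series, so the unsorted dense culture had the highest of the 12. Myeloid markers summed to 80.7 TPM in the unsorted library and 3159.6, 3051 and 422 TPM in the low, mid and high fractions, and to 21.1 to 40.3 TPM in the other 8. Germ-cell markers summed to 3781 TPM in the unsorted library and 5832, 5655 and 5869 TPM in the low, mid and high fractions. Sertoli markers summed to 32.3 TPM in the unsorted library, 9.29 to 11.4 TPM in the fractions and 15.7 to 55.2 TPM in the other 8. The unsorted library was thus inside the range of those 8, and the fractions were below it. Of 8 tested members 4 were called higher (7.57% over all tested genes) and none lower (2.62%), with a median log2 ratio of 0.81. The defining genes Amh and Fshr had 0 counts in the unsorted library. Leydig markers summed to 1.98 TPM and endothelial ones to 31.1 TPM in the unsorted library, and to 2.63 to 5.06 and 18.6 to 20.5 TPM in the fractions. Germ-cell markers were thus abundant in all 4 libraries, as their label of cultured germline stem cells has it, beside transcripts of fibroblast markers in the unsorted library and of myeloid markers in the fractions. What part those transcripts have in the other differences was not tested.

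**Figure D3:**
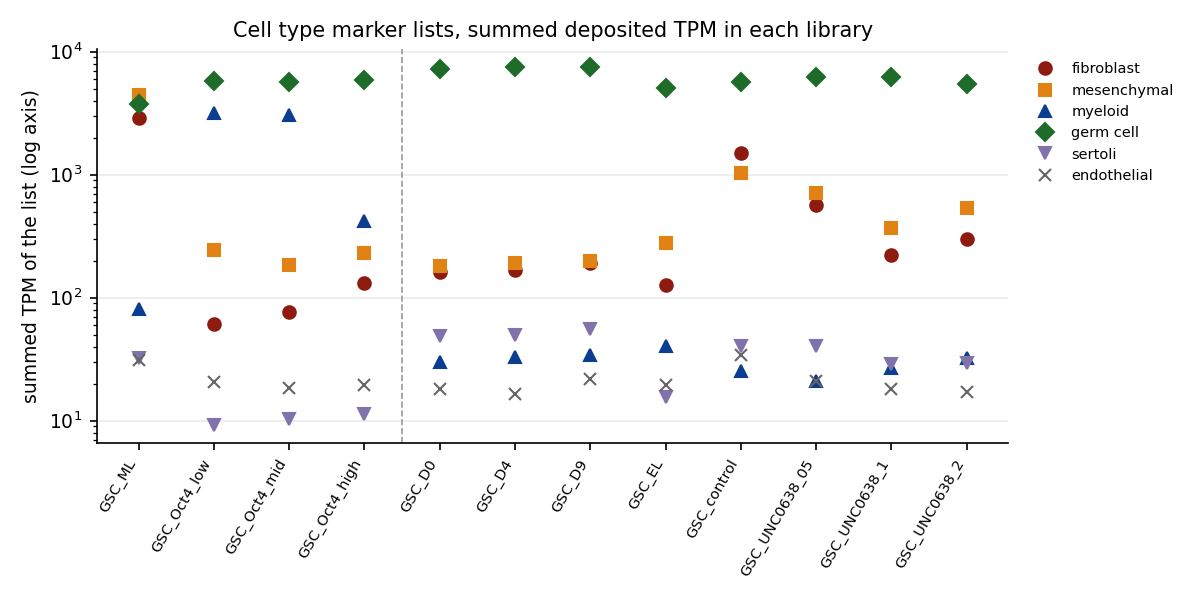
Summed deposited TPM of 6 marker lists (log axis) in each of the 12 RNA libraries, with the 4 dense-Matrigel libraries left of the dashed line. Fibroblast and mesenchymal sums are highest in GSC_ML, myeloid sums in GSC_Oct4_low and GSC_Oct4_mid, and the germ-cell sum is lowest in GSC_ML.

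Fibroblast genes were higher. Of the list's 21 genes 20 passed the filter, 20 lay above all 3 fractions and 19 did so by at least 2-fold, none below, against 32.4% above and 7.57% by 2-fold over all tested genes, with a median log2 ratio of 4.92 to the mean of the fractions (5.22 with genes near 0 taken at 3 counts). Fap, a fibroblast surface protease, had 0 counts in all 4 libraries. Col1a2, the other chain of type I collagen, was at 1353 CPM in the unsorted library and 0.627, 2.53 and 11.4 CPM in the low, mid and high fractions. Col3a1, the fibrillar collagen of soft tissue, was at 294 CPM against 0.125, 3.56 and 8.17 CPM, in the same order of libraries, and Fbln2, a matrix protein, at 2075 CPM against 3.01, 3.72 and 26.6 CPM. All 3 were highest in the GFP-high fraction among the sorted libraries, and the unsorted library exceeded that fraction with log2 gaps of 6.78, 5.01 and 6.23. Lox, the enzyme that cross-links collagen, was instead highest among the fractions in GFP-low cells, at 1481 CPM against 12.9, 6.26 and 6.58 CPM. Pdgfrb, the receptor for PDGF on fibroblasts and pericytes, was at 57.0 CPM against 2.13, 2.38 and 6.16 CPM, and Postn, a matrix protein of remodelling tissue, at 158 CPM against 1.13, 0.554 and 0.637 CPM.

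The mesenchymal list was higher as well, with 11 of 15 tested genes called higher (7.57% over all genes), none lower (2.62%), and a median log2 ratio of 4.30. Tnc, an adhesion-modulating matrix protein, was at 249 CPM against 0, 0.317 and 2.44 CPM, and the GFP-low library had 0 counts. Sparc, a collagen-binding protein, was at 1832 CPM against 6.65, 9.90 and 33.8 CPM, and Fn1, fibronectin, at 2186 CPM against 213, 168 and 248 CPM, so fibronectin transcripts were abundant in the fractions too. Cdh2, the cadherin of mesenchymal cells, was at 196 CPM against 6.02, 3.96 and 9.02 CPM. The transcription factors that drive epithelial-mesenchymal transition ranged from called higher to inside the range. Twist2 was at 24.4 CPM against 0, 0.317 and 0.637 CPM and Prrx1 at 41.3 CPM against 0.376, 0.554 and 0.531 CPM, both called higher. Zeb2 was called higher at 20.5 CPM against 5.39, 5.86 and 0.849 CPM, with the GFP-high library far below the other fractions. Zeb1 (38.6 CPM against 30.2, 27.0 and 24.7 CPM) and Snai1 (66.9 CPM against 36.6, 31.0 and 37.6 CPM) lay above all 3 fractions by less than 2-fold, with log2 gaps of 0.34 (counting interval 0.06 to 0.65) and 0.82 (counting interval 0.60 to 1.06). Foxc2 was inside their range, and Twist1 exceeded the highest fraction by a log2 gap of 0.04. Snai2, under the filter, was at 2.90 CPM (12 counts) in the unsorted library against 0, 0 and 0.106 CPM.

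Annexins, S100 proteins and galectins, which bind calcium, membranes or sugars and are abundant in adherent stromal cells, had a median of 4.33, with 15 of 17 genes called higher, against 7.57% of all tested genes. Per length, S100a6 reached 3023 TPM in the unsorted library against 27.3, 27.5 and 47.3 TPM in the fractions. Lgals1, a galectin, was at 1731 TPM against 145, 134 and 144 TPM, and Anxa2 at 625 TPM against 33.8, 33.8 and 41.3 TPM. In these 3 genes the unsorted library lay far above every fraction.

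Of 18 tested genes of the actin cytoskeleton, 14 were called higher (7.57% over all genes), none lower (2.62%), with a median log2 ratio of 2.31. Acta2, smooth-muscle actin, was at 189 CPM in the unsorted library and 1.63, 0.079 and 0.849 CPM in the low, mid and high fractions, and Cald1, caldesmon, at 264 CPM against 1.88, 1.74 and 3.08 CPM. Tagln, transgelin, was at 62.5 CPM against 0.752, 0.950 and 0.318 CPM and Tpm2, a tropomyosin, at 71.0 CPM against 0.627, 1.43 and 2.12 CPM. Cnn1, calponin of mature smooth muscle, was at 0.724 CPM against 0.125, 1.11 and 0.425 CPM, under the filter, so not every smooth-muscle gene was high. Smaller log2 gaps of 0.88, 0.92 and 1.05 were those of 3 genes that most cells use: Vcl, vinculin, was at 229 CPM against 124, 109.8 and 118 CPM, Flna, filamin, at 263 CPM against 139, 114 and 127 CPM, and Actn4, an actinin, at 413 CPM against 191, 176 and 199 CPM. Srf, the transcription factor that binds the CArG box of many of these genes, was lowest in the unsorted library, at 10.6 CPM against 17.3, 20.1 and 13.3 CPM.

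Promoter sequence was available for 12 of the 14 called contractile genes, from RefSeq on GRCm38.p6. The CArG box was searched on both strands in the 250 bases before the start of each gene, where 1.47% of all 32851 promoters hold it. It was found for Cnn2 and Myl9, shown here because both genes were called higher, at 165 CPM against 36.9, 29.8 and 33.0 CPM and 13.3 CPM against 2.01, 1.90 and 2.76 CPM. The Cnn2 window is chr10:79988350-79988599 on the plus strand and the Myl9 window chr2:156775214-156775463 on the plus strand, written 5′ to 3′ with the CArG box in capitals, which starts 56 bases before the Cnn2 start and 161 bases before that of Myl9.
Cnn2: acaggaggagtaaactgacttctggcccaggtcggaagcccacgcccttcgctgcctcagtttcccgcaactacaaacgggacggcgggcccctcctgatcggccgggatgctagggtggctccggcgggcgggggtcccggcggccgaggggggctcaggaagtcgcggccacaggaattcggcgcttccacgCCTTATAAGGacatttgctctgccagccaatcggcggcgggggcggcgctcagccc
Myl9: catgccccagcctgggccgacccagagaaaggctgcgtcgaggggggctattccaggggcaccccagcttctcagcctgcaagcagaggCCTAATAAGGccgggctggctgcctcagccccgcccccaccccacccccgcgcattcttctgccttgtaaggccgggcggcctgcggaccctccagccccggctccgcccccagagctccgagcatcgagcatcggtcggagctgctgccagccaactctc

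Targets of YAP, the coactivator that responds to cell spreading and stiffness and acts through TEAD factors, were also higher. All 12 tested members lay above the 3 fractions and 8 did so by at least 2-fold, against 32.4% and 7.57% of all tested genes, with a median log2 ratio of 2.36. Ctgf, a secreted matrix protein, was at 532 CPM in the unsorted library and 2.51, 0.713 and 3.82 CPM in the low, mid and high fractions, a log2 gap of 6.79 (counting interval 6.65 to 7.64). Cyr61, its relative, was at 269.9 CPM against 1.50, 1.74 and 10.1 CPM, and Ankrd1, a nuclear ankyrin-repeat protein, at 97.1 CPM against 0.752, 0.158 and 3.29 CPM. Both were highest among the fractions in GFP-high cells. Axl, a receptor kinase, was at 300.4 CPM against 14.7, 8.87 and 15.8 CPM. The smallest gaps were those of Lats2 (141 CPM against 95.4, 126 and 139 CPM) and Jub (86.4 CPM against 76.4, 61.8 and 68.8 CPM), a kinase and an adaptor of the same pathway, and their log2 gaps of 0.02 (counting interval -0.12 to 0.16) and 0.18 (counting interval -0.01 to 0.37) had intervals that include equal levels.

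The letters GGAATG, the core to which TEAD factors bind, were searched on both strands in the same windows. They occur in 12.6% of all promoters, and in those of Cyr61, Ankrd1, Amotl2 and Axl among the 7 called YAP targets with a sequence (57.1%). They also occur in 4 of the 12 contractile promoters (33.3%), those of Acta2, Tpm1, Cald1 and Actn4. The windows of Cyr61 (chr3:145649986-145650235, minus strand) and Ankrd1 (chr19:36119845-36120094, minus strand) are shown because these genes were low in every fraction, and this motif was chosen for the search after their values had been seen. Capitals mark GGAATG or its reverse complement CATTCC, starting 103 bases before the Cyr61 start, and 210 and 123 bases before that of Ankrd1.
Cyr61: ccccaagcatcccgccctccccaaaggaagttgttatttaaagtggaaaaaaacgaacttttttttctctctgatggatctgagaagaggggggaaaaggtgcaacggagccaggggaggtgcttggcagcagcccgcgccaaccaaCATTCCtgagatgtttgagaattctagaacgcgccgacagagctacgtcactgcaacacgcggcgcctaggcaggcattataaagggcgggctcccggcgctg
Ankrd1: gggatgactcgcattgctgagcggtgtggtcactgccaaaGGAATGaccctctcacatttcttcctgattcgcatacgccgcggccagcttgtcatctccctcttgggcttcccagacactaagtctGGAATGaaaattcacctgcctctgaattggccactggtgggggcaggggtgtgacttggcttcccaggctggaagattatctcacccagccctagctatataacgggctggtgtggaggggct

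Matrix proteases and their inhibitors followed, with 14 of 18 tested genes called higher (7.57% over all genes), none lower (2.62%), and a median of 3.19. Timp1, an inhibitor of metalloproteases, was at 528 CPM in the unsorted library and 3.51, 4.59 and 4.78 CPM in the low, mid and high fractions. Mmp2, a gelatinase, was at 259 CPM against 16.05, 21.7 and 39.4 CPM, and Mmp14, the membrane protease that activates it, at 216 CPM against 36.5, 48.0 and 33.9 CPM. Mmp9, a gelatinase of leukocytes among other cells, was not higher, at 56.3 CPM against 132, 67.1 and 55.5 CPM, inside the range of the fractions.

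Basement membrane genes were uneven. Called higher were 7 of 14 (7.57% over all genes), none lower (2.62%), with a median of 1.33. Col4a1 and Col4a2, the chains of type IV collagen, were at 1044 CPM against 3.51, 5.38 and 20.2 CPM and at 505 CPM against 1.63, 2.93 and 8.39 CPM. Lama2, a laminin chain of muscle and stroma, was at 39.8 CPM against 0.125, 0 and 0.106 CPM. By contrast Lama5, a laminin chain of epithelia, was lowest in the unsorted library at 61.8 CPM against 68.5, 91.3 and 122 CPM, a log2 gap of -0.15, and Nid2, which links laminin to collagen, was inside the range at 494 CPM against 615, 409 and 452 CPM. Nid1, its relative, was called higher at 1011 CPM against 226, 117 and 85.8 CPM.

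Integrins, the receptors for these matrix proteins, were called higher in 3 of 11 tested genes, against 7.57% of all genes. Itga5, the fibronectin receptor subunit, was at 342 CPM in the unsorted library and 8.15, 10.1 and 8.70 CPM in the low, mid and high fractions. Itgb1, its partner, was at 1003 CPM against 204, 203 and 217 CPM, and Itgav at 58.2 CPM against 11.7, 12.5 and 8.92 CPM. Itga6, a laminin receptor subunit used to enrich spermatogonial stem cells, differed little at 46.1 CPM against 36.0, 39.9 and 39.7 CPM. The list median was 0.25, against -0.04 over all genes, and -0.14 without the low fraction.

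Some of the widest upward gaps were outside these lists. By log2 gap the first 15 genes were Prl2c3, Prl2c2, Cpe, Thbs1, Ctgf, Col1a2, Lox, Igfbp7, Cav1, Timp1, Vim, Serpinb2, Serpinb9b, S100a6 and Pdk4, from 8.46 down to 6.26. Prl2c3 and Prl2c2, prolactin-family hormones with near-identical relatives whose shared reads make their split uncertain, were at 602 CPM against 0.376, 0.713 and 0 CPM and 329.8 CPM against 0.251, 0.554 and 0 CPM. Thbs1, thrombospondin, an adhesive glycoprotein, was at 2177 CPM against 8.90, 8.95 and 17.2 CPM. Cpe, a peptide-processing enzyme, was at 493 CPM against 1.13, 1.82 and 1.91 CPM, Igfbp7, a secreted binding protein, at 266 CPM against 0.502, 0.554 and 1.59 CPM, and Cav1, the coat protein of caveolae, at 360.2 CPM against 0.752, 0.317 and 2.55 CPM. Pdk4, a mitochondrial kinase that restrains pyruvate oxidation, was at 124 CPM against 0.627, 0.396 and 0.212 CPM. Serpinb9b, a protease inhibitor, was at 128 CPM against 0.627, 0.475 and 0.531 CPM and at 0.399 CPM in the DMSO feeder culture, whereas Thbs1 reached 474 CPM there. The 2 genes next to the threshold were Ece1, just inside at 176 CPM against 60.2, 67.1 and 87.3 CPM (log2 gap 1.00), and Hipk2, just outside at 19.8 CPM against 9.40, 8.47 and 6.16 CPM, whose log2 gap fell short of 1.

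**Figure D4:**
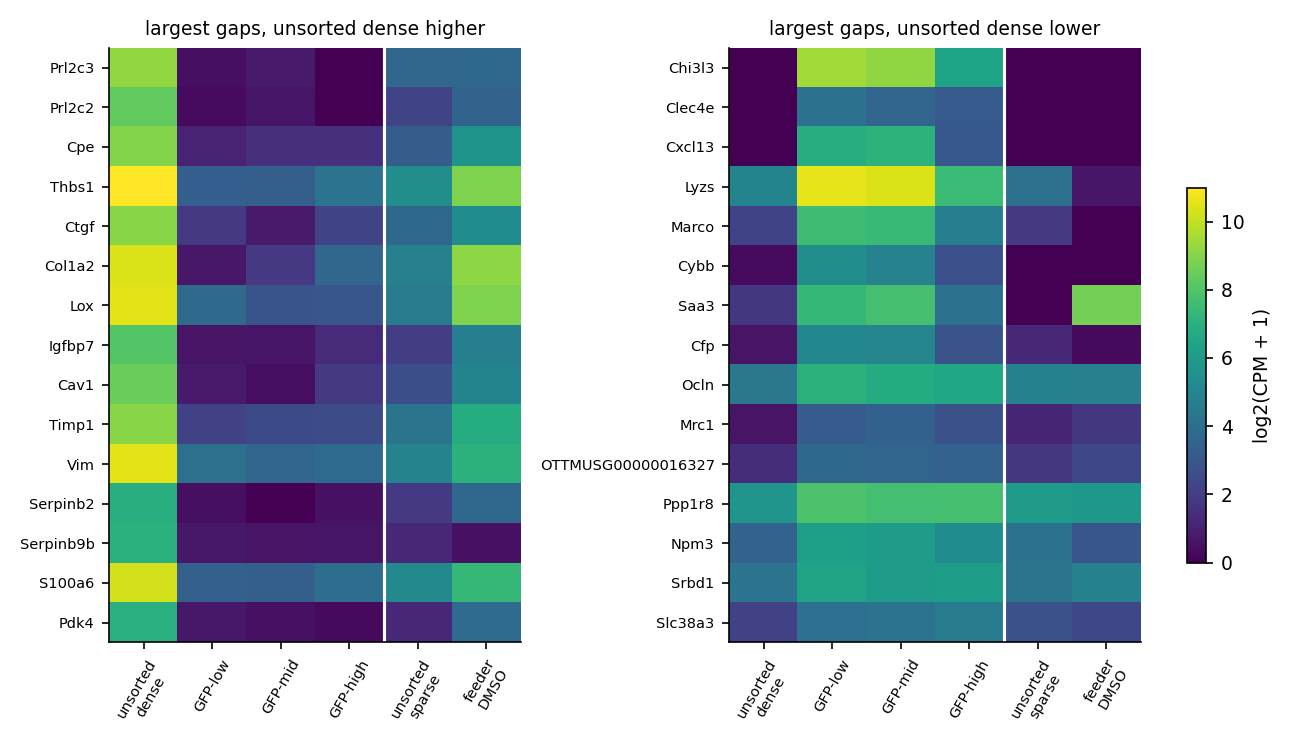
Log2(CPM + 1) as colour for the 15 genes with the widest gap in each direction in the unsorted dense library, the 3 fractions and, right of the white line, the unsorted sparse-Matrigel and DMSO feeder libraries. The left panel is bright in the unsorted dense column, and the upper rows of the right panel are bright in the GFP-low and GFP-mid columns.

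Macrophage genes led the downward gaps. Of 22 listed genes 20 passed the filter, 18 lay below all 3 fractions and 13 did so by at least 2-fold, none above, with a median log2 ratio of -3.16, where 37.1% of all tested genes lay below and 2.62% by 2-fold. Of the 20, 14 reached the filter only through the sorted libraries, so their direction was set in part by the filter, and these counts and this median are a description only. Chi3l3, a chitinase-like protein secreted by macrophages, had 0 counts in the unsorted library and was at 719, 583 and 82.3 CPM in the fractions, at least 113-fold lower than in GFP-high cells with the unsorted library taken at 3 counts, as for the other bounds below. Lyzs, macrophage lysozyme, was at 30.2 CPM against 1524, 1353 and 182 CPM, a log2 gap of -2.56 (counting interval -2.87 to -2.33). Its 125 counts make it a transcript still present in the unsorted library, as was Marco, a scavenger receptor, at 3.62 CPM against 190.2, 172 and 25.7 CPM. Mpeg1, a macrophage pore protein, was at 0.241 CPM against 66.7, 54.3 and 3.93 CPM, and Emr1, the F4/80 antigen, at 0.241 CPM against 31.0, 31.8 and 3.61 CPM, each with 1 count in the unsorted library. C1qb, a complement subunit, was at 2.41 CPM against 81.6, 95.6 and 9.13 CPM, and Ctss, a lysosomal protease, at 1.21 CPM against 70.5, 74.2 and 5.31 CPM.

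Within the fractions all 20 tested myeloid genes were lowest in GFP-high cells, and the gap of the unsorted library was measured against that fraction. The share of all tested genes lowest in GFP-high cells is not given here, so this count too is a description only. Without the GFP-high library the list median was -4.25. In the unsorted library 11 of the 22 myeloid genes had at most 3 counts, and Itgam, F13a1 and Aif1 had 0. Cd68, a lysosomal protein of macrophages that other cells also make, was inside the range at 6.28 CPM against 20.2, 16.2 and 5.41 CPM. Cybb, an oxidase subunit of phagocytes, and Cfp, properdin, had 1 and 2 counts in the unsorted library, and log2 gaps of -2.39 (counting interval -9.85 to -1.97) and -2.25 (counting interval -6.73 to -1.73). Clec4e, a lectin receptor, had 0 counts, at least 10.5-fold lower than in the high fraction. Cxcl13, a chemokine, also had 0 counts, against 115, 138 and 6.90 CPM in the fractions, at least 9.52-fold lower than in the high fraction. Saa3, an acute-phase protein, was at 2.41 CPM against 162, 213 and 16.9 CPM and at 421 CPM in the DMSO feeder culture, whose myeloid list summed to 25.2 TPM. Pik3ap1, a signalling adaptor, was the gene just past the 2-fold threshold, at 9.66 CPM against 20.4, 23.4 and 24.2 CPM.

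Several of the widest downward gaps were in genes not known as myeloid, and for those named here the other unsorted libraries were also below the 3 fractions. Ppp1r8, a nuclear inhibitor of protein phosphatase 1, was at 52.6 CPM in the unsorted library and 242, 207 and 214 CPM in the low, mid and high fractions, and at 65.5 and 56.7 CPM in the sparse-Matrigel and DMSO libraries. Srbd1, an RNA-binding domain protein, was at 17.1 CPM against 83.9, 66.4 and 68.3 CPM, and at 17.8 and 27.5 CPM in those libraries. Npm3, a nucleolar chaperone, was at 9.90 CPM against 73.4, 66.7 and 39.6 CPM, with 15.96 and 6.59 CPM. Slc38a3, an amino acid transporter, was at 3.38 CPM against 15.05, 17.5 and 22.9 CPM, with 5.63 and 4.19 CPM. Predicted loci and genes with clone names made up 30.4% of the 375 lower genes and 11.1% of the 1083 higher ones, against 18.8% of the genes tested.

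Of the epithelial genes 4 of 19 were called lower and 2 higher, where 2.62% and 7.57% of all tested genes were, with a median log2 ratio of -0.41, which changed sign to 0.09 with ratios centred on germ-cell genes. Of the 19, 1 reached the filter only through the sorted libraries, so its direction was set in part by the filter. Ocln, occludin of tight junctions, was at 19.3 CPM in the unsorted library and 131, 109 and 93.9 CPM in the low, mid and high fractions, a log2 gap of -2.22 (counting interval -2.63 to -1.95). Marveld2, tricellulin, which seals the corners where cells meet, was at 18.4 CPM against 86.0, 70.2 and 59.3 CPM, and Tjp3, a tight junction scaffold, at 0.724 CPM against 5.27, 5.31 and 5.10 CPM. In the sparse-Matrigel culture these were at 27.2, 19.0 and 1.64 CPM, near the dense unsorted culture. Cdh1, E-cadherin, did not follow, at 12.6 CPM against 9.78, 9.82 and 11.8 CPM, and Jup, plakoglobin, was called higher at 96.6 CPM against 27.8, 31.7 and 46.1 CPM.

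**Figure D5:**
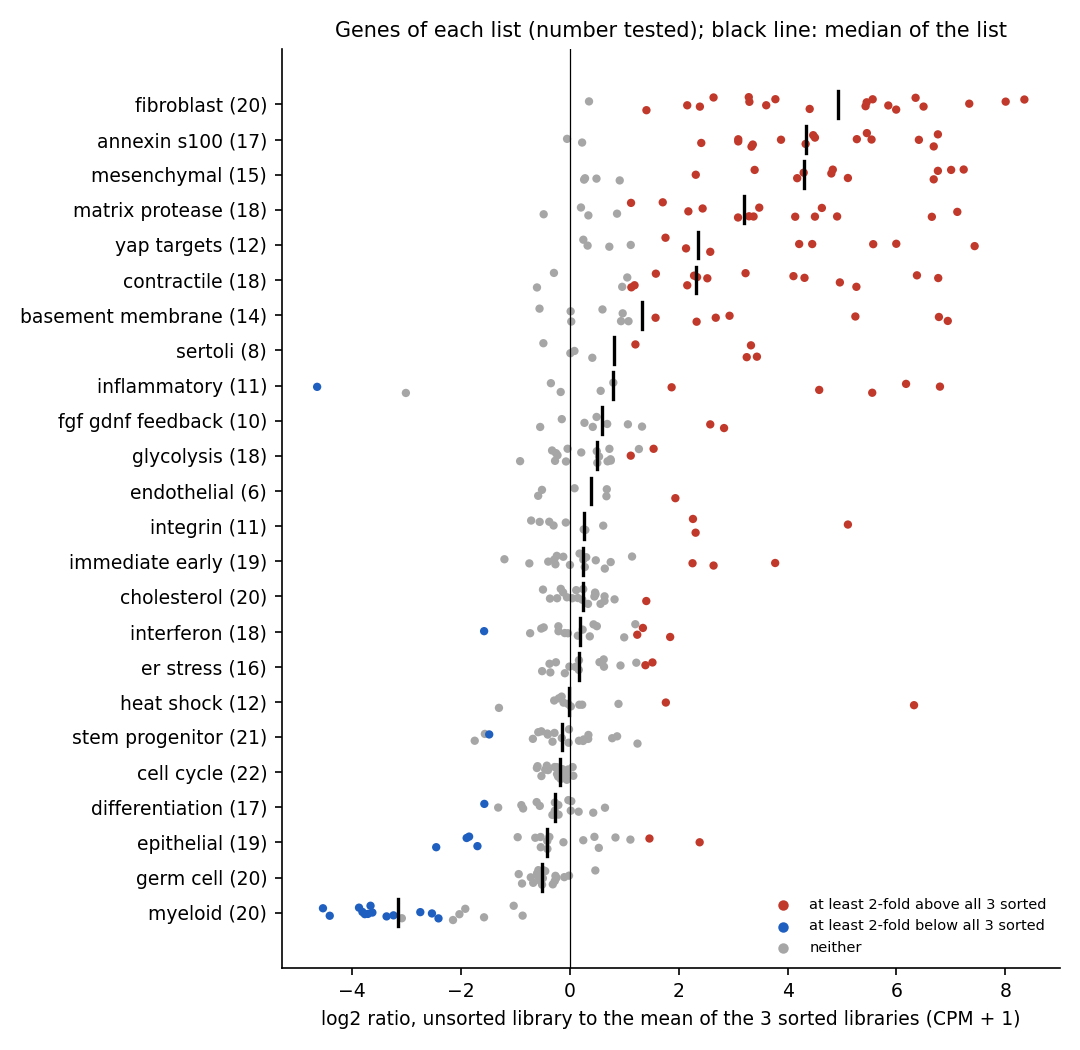
Log2 ratio of the unsorted library to the mean of the 3 sorted libraries (horizontal axis, on CPM + 1) for each tested gene of 24 lists, with the number tested in brackets and a black line at the median. Red and blue points are genes at least 2-fold above or below all 3 fractions, which gather in the stromal lists at the top and the myeloid list at the bottom.

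Germ-cell genes were lower by a small amount. Of 20 tested genes 17 lay below all 3 fractions, none by 2-fold, and 1 lay above, where 37.1% and 32.4% of all tested genes did, with a median log2 ratio of -0.50 and quartiles of -0.60 and -0.27. The median was -0.69 with total counts, -0.75 with the deposited TPM and, by construction, 0 when centred on the list itself. Dazl, a translational regulator, was at 1434 CPM in the unsorted library and 1931, 1721 and 1481 CPM in the low, mid and high fractions, and Piwil2, a piRNA-binding protein, at 384 CPM against 572, 492 and 554 CPM. Dnd1, an RNA-binding protein needed for germ-cell survival, was at 105 CPM against 221, 197 and 189 CPM, and Rnf17, a piRNA pathway factor, at 93.9 CPM against 162, 183 and 177 CPM, the widest gaps of the list at -0.84 and -0.78. Dmrt1, a transcription factor of the testis shared by germ and Sertoli cells, was the exception, at 376 CPM against 263, 258 and 296 CPM, above all 3.

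Of 21 tested stem and progenitor genes, 11 were inside the range of the fractions, 6 below and 4 above, against 30.5%, 37.1% and 32.4% of all tested genes, and 1 was called lower (2.62% over all genes). Of the 21, 1 reached the filter only through the sorted libraries. Gfra1, the GDNF receptor, was at 119 CPM in the unsorted library and 176, 79.9 and 58.5 CPM in the low, mid and high fractions, and Ret at 369 CPM against 705, 408 and 316 CPM. Etv5, a transcription factor induced by GDNF, was at 318 CPM against 614, 319 and 222 CPM. For these 3 the unsorted library lay between the low and high fractions, and between the low and mid ones for Gfra1. Zbtb16 (PLZF), a repressor that maintains the stem cell pool, was the called gene, at 91.3 CPM against 291, 234 and 248 CPM, a log2 gap of -1.35 (counting interval -1.51 to -1.20). It was at 115 and 94.4 CPM in the sparse-Matrigel and DMSO cultures. Pou5f1, whose promoter drives the reporter, was at 51.7 CPM in the unsorted library and 83.9, 176 and 367 CPM in the low, mid and high fractions, so the unsorted culture was below even the GFP-low fraction, with a log2 gap of -0.69 (counting interval -0.93 to -0.47). The list median of -0.15 became 0.35 when centred on germ-cell genes.

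Differentiation genes lay inside the range in 9 of 17 and below it in 7, where 30.5% of all tested genes were inside and 37.1% below. The list had 1 gene called lower (2.62% over all tested genes) and none called higher (7.57%). Its median of -0.28 was 0.23 when centred on germ-cell genes. Kit, the receptor that marks differentiating spermatogonia, was the called gene, at 27.8 CPM in the unsorted library and 62.3, 74.3 and 130.0 CPM in the low, mid and high fractions, a log2 gap of -1.14 (counting interval -1.47 to -0.87). Stra8, induced by retinoic acid at the onset of differentiation and meiosis, was at 46.4 CPM against 67.2, 133 and 179 CPM, and Sycp3, a protein of the meiotic chromosome axis, at 96.3 CPM against 111, 171 and 151 CPM. In all 3 the unsorted library was nearest to the GFP-low fraction. Feedback genes of FGF and GDNF signalling were above the fractions in 5 of 10, 2 by at least 2-fold, against 32.4% and 7.57% of all tested genes: Dusp4, a MAP kinase phosphatase, at 97.1 CPM against 26.1, 10.7 and 7.22 CPM, and Fosl1, an AP-1 subunit, at 38.6 CPM against 5.89, 6.18 and 4.88 CPM. Dusp6 and Spry4, both ERK feedback inhibitors, were inside the range at 263 CPM against 364, 210.4 and 135 CPM and 90.3 CPM against 133, 64.7 and 30.0 CPM.

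Immediate early genes, which can be induced when cells are dissociated, lay above all 3 fractions in 10 of 19 and below them in 5, where 32.4% and 37.1% of all tested genes did. Of the 19 genes 3 were called higher in the unsorted library and none lower, against 7.57% and 2.62% over all genes, with a median of 0.25 (-0.01 in the deposited TPM). Myc, a growth regulator, was at 42.7 CPM against 3.51, 1.11 and 2.44 CPM, Klf6 at 109 CPM against 23.6, 15.3 and 12.8 CPM and Junb at 102 CPM against 23.1, 23.8 and 15.7 CPM. Fos was at 32.8 CPM against 89.7, 87.3 and 57.96 CPM, Egr1 at 238 CPM against 291, 277 and 276 CPM and Nr4a1 at 66.2 CPM against 68.2, 72.6 and 75.4 CPM, all 3 lowest in the unsorted library by less than 2-fold. Among the heat-shock genes Hspb1, a small chaperone linked to actin, was at 185 CPM against 0.502, 1.43 and 2.44 CPM and Bag3, a chaperone regulator, at 104 CPM against 35.2, 28.7 and 26.5 CPM, whereas Hspa8, the constitutive chaperone, was inside the range at 4065 CPM against 4522, 3928 and 3644 CPM. The heat-shock median was -0.01, and -0.27 to 0.50 over the alternatives run.

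Inflammatory genes went both ways, with 5 of 11 called higher and 1 lower, against 7.57% and 2.62% of all tested genes. The chemokines Ccl2 and Ccl7, which attract monocytes, were at 155 CPM against 1.38, 1.03 and 1.06 CPM and at 116 CPM against 0.376, 2.14 and 2.55 CPM. Ptgs2, the inducible prostaglandin synthase, was at 50.7 CPM against 1.63, 0.475 and 1.59 CPM. Lcn2, an iron-binding acute-phase protein, was inside the range at 15.2 CPM against 56.0, 24.3 and 3.18 CPM. Csf1, the macrophage growth factor that Csf1r binds, was at 429 CPM in the unsorted library and 1.63, 1.03 and 9.77 CPM in the low, mid and high fractions, a log2 gap of 5.32 (counting interval 5.16 to 5.78). Ligand and receptor were thus high in different libraries, Csf1 in the unsorted culture and Csf1r in the GFP-low and GFP-mid fractions.

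For the metabolic, stress, interferon and cell-cycle lists the background over all tested genes was 7.57% called higher, 2.62% called lower, 32.4% above all 3 fractions and 37.1% below. Glycolysis genes were above all 3 fractions in 10 of 18, 2 by at least 2-fold and none called lower, with a median of 0.50. The called genes were Pgk1, at 131 CPM against 60.3, 39.3 and 36.6 CPM, and Eno1, at 849 CPM against 363, 389 and 422 CPM. Eno1 has pseudogenes that can share its reads. Cholesterol synthesis had a median of 0.24 with 1 of 20 called higher, Ebp at 13.3 CPM against 5.14, 4.67 and 3.50 CPM. Endoplasmic reticulum stress genes had a median of 0.17 with 2 of 16 called higher, Ddit3 at 19.8 CPM against 7.65, 7.60 and 5.73 CPM and Atf5 at 8.93 CPM against 1.88, 2.85 and 2.76 CPM. Interferon-stimulated genes had a median of 0.19 with 3 of 18 called higher and 1 lower. Cell-cycle genes had none called, 11 of 22 below all 3 fractions (37.1% over all genes) and none above, with a median of -0.18 that became 0.33 when centred on germ-cell genes. The cholesterol median was -0.02 in the deposited TPM, and the endoplasmic reticulum stress median -0.02 with total counts and -0.095 in the deposited TPM. The interferon median was -0.0016 in the deposited TPM, -0.12 with the filter set over the 4 libraries and -0.035 with a filter at 10 CPM.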

How the data were processed

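Total RNA was sequenced after modified Smart-seq2 amplification, per the labels' protocols. The submitters' processing notes name Trim Galore, RSEM and mm10, with no version. The authors deposited, per the file headers, RSEM's expected count per gene, not normalized. The authors also deposited TPM, which are length-scaled, and FPKM, not used here, per the file headers. The aligner is not given in the sources used here. Expected counts were rounded. TMM factors (edgeR 4.0.16, R 4.3.3) over 12 libraries gave CPM. No test was made: the fractions carry different labels and are not replicates. Members, lists and rules were chosen with earlier results of these data known. Of 425 list entries 421 matched a gene, 8 of them by RefSeq transcript. Named genes were the 4 markers, list genes, the 15 widest gaps each way (at least 50 counts in the unsorted library, or in each fraction, leaving out LOC, EG and Rik names) and those nearest the threshold, some of which are not reported here. Amplified reads need not be separate molecules, so an interval or floor here reflects counting error alone. Steps were tested on simulated counts. Alternatives were DESeq2 1.42.0 size factors, total counts, centring on germ-cell genes, TPM, other pseudocounts, filters and folds, the counting interval, and leaving out each fraction. Python 3.11.15 with pandas 2.3.3, numpy 2.4.6, scipy 1.17.1 and matplotlib 3.10.9 was used. The 4 ATAC-seq libraries were not analysed here.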

Additional observations from a re-analysis of the deposited data

How the results depend on the processing

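The count of higher genes, 1083, was 785 to 1273 under other scalings, pseudocounts and filters, except for 2037 when centred on the germ-cell list and 497 with a filter at 10 CPM. It was 517 at 4-fold. The lower count, 375, moved more: 89 when centred on the germ-cell list, 581 in the deposited TPM, 685 and 95 with pseudocounts of 0.1 and 5, 142 with a filter at 10 CPM and 23 at 4-fold. Leaving out 1 fraction in turn gave 1153 to 1255 higher and 444 to 628 lower, the last without GFP-low. With no fold, 4629 genes higher and 5308 lower became 9645 and 1486 when centred on the germ-cell list, 3028 higher in the deposited TPM and 2976 higher with a filter at 10 CPM. The causes of these moves were not tested, beside the fewer genes that a filter leaves. The myeloid median ranged from -4.25 to -1.98, the fibroblast median from 3.29 to 5.50 and the mesenchymal median from 3.08 to 5.01, each with its direction in every alternative run. Requiring a counting interval that excludes equal levels left 1083 higher and 368 lower. With a pseudocount of 5 the gaps of Csf1r and Mrc1 were -0.77 and -0.95, under 2-fold. The Sertoli median ranged from 0.25 to 3.25 and rests on 8 genes, and the Leydig list had no value with a filter at 10 CPM. At the depth of the unsorted library 3 counts are 0.724 CPM, so lower levels there were not resolved. No paired analysis was possible because each RNA group has 1 library and no test was made.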

Other observations

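Secreted growth factors that stromal cells can supply were looked up after the values of Csf1 had been seen, so this set of 18 genes was chosen with values known. The tables held 17 of them and 13 passed the filter, of which 8 were at least 2-fold above all 3 fractions, Csf1 itself among them, and none below, against 7.57% and 2.62% of all tested genes. Fgf7, a growth factor for epithelial cells, was at 38.9 CPM in the unsorted library and 0, 0 and 0.106 CPM in the low, mid and high fractions. Tgfb3 was at 31.9 CPM against 1.13, 1.27 and 0.637 CPM, Vegfc at 17.4 CPM against 0.125, 0.554 and 0 CPM, and Gas6, the ligand of Axl, at 265 CPM against 29.3, 37.3 and 49.998 CPM. Kitl, the ligand of Kit, was at 13.8 CPM against 0.627, 0.317 and 0.743 CPM, and Lif at 10.1 CPM against 0.502, 0 and 1.06 CPM. Gdnf, which the medium also supplies, was under the filter, with 11 counts in the unsorted library and 3, 1 and 0 in the fractions. Igf1 was at 0.724 CPM against 2.01, 1.27 and 1.06 CPM, with 3 counts in the unsorted library. Fgf2 was listed at 0 in all 4 libraries.

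A pair of abundant transcripts outside the lists, chosen after their values were seen, also differed. LOC672857, a predicted locus, was at 65229.9 CPM in the unsorted library and 11844, 28240.0 and 32489 CPM in the low, mid and high fractions, and Lars2, the mitochondrial leucyl-tRNA synthetase, at 12935 CPM against 1572, 4858 and 4409.8 CPM. Their log2 gaps were 1.01 and 1.41. Whether the reads counted under these names come from those genes was not tested. The 1083 genes called higher, which were picked for that, held 16.9% of all counts in the unsorted library and 3.001%, 5.23% and 5.802% in the fractions. Without predicted loci and clone names, but with Lars2, the shares were 9.95% and 1.64% to 2.04%.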
